A study of Mus musculus with 16 samples.

Results

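The 40 genes described here encode proteins of the skeletal muscle contractile apparatus, its calcium handling and its energy supply, and they were followed in RNA-seq libraries of the mouse thyroid. They were chosen by symbol, and all 40 were found among the 21640 genes of the count table. Of these, 11 are fast-fibre forms, 8 are slow-fibre forms, 2 are developmental myosin heavy chains and 19 are shared by fibre types or not assigned to one here. The libraries came from 16 thyroids of wild-type C57Bl/6J males, 1 library per mouse. Mice stayed on chow (CD) or were moved at 8 weeks of age to a high-fat diet with sucrose in the drinking water (HF+SD), and thyroids were taken after 3 or 6 weeks. Each of the 4 groups held 4 mice: M53, M54, M55 and M96 on the CD and M7, M19y, M20y and M31 on the HF+SD at 3 weeks, and M22, M43, M45 and M48 on the CD and M5, M18, M34 and M35 on the HF+SD at 6 weeks. For its own analysis the study names fewer CD mice at 6 weeks than the labels list, and which mouse was left out is not given in the sources used here. Diets started at the same age, and the project number in the library names changed between 3 and 6 weeks, so no test of levels was made across these times.

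Skeletal muscle shortens when myosin heavy chains of the thick filament pull on actin of the thin filament, and calcium opens the thin filament by binding troponin C within the troponin complex. Most of these proteins exist in fast and slow forms made by separate genes, and mammalian fibres are typed by their myosin heavy chain, with Myh4 marking type IIb, Myh1 type IIx, Myh2 type IIa and Myh7 type I. Myh3 and Myh8 are the embryonic and perinatal chains, which adult limb and trunk fibres largely stop making. The thyroid itself has no striated muscle, but it lies against the trachea, the oesophagus and the strap muscles of the neck.

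The promoters of a gene shared by fibre types, a fast gene and a slow gene are shown because the report turns on how these classes moved together or apart. The RefSeq promoter table for GRCm38.p6 held 31 of the 40 genes, and its sequence of 250 bases before the start site is printed 5′ to 3′, with capitals for an E-box (CANNTG, read on both strands), a MEF2 motif or a CArG box (both strands) or a TATA box (TATAAA, the printed strand only). The table lists more than 1 start for Myh7, of which 1 is printed.
Acta1 (chr8:123894776-123895025, minus strand): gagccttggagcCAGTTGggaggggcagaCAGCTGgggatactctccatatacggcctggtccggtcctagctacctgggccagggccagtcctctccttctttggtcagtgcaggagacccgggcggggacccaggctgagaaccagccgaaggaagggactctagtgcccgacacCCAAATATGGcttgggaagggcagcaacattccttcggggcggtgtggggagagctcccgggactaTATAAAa
Myh4 (chr11:67237562-67237811, plus strand): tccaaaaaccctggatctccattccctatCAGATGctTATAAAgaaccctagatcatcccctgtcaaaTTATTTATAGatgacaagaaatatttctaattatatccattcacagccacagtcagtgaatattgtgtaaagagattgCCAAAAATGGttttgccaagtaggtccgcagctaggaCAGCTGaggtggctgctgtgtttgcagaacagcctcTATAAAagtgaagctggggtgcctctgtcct
Myh7 (chr14:54994550-54994799, minus strand): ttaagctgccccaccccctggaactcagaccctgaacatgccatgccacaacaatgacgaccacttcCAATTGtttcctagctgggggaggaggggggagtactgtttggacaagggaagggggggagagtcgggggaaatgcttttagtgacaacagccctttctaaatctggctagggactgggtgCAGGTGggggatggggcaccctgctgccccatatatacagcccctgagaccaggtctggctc
An E-box was found in 28 of the 31 genes, against 69.3% of all 27025 genes of the table, and a MEF2 motif in 7, against 3.42%. A CArG box was found in 4 of the 31, against 1.62%, and TATAAA in 5, against 8.94%. The printed window of Myh4 held 2 E-boxes, 1 MEF2 motif, 1 CArG box and TATAAA at 2 places, that of Acta1 held 2 E-boxes, 1 CArG box and 1 TATAAA, and that of Myh7 held 2 E-boxes and none of the others. These are matches of letters, not sites of binding.

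All 16 libraries carried the markers of their tissue: Tg, the precursor of thyroid hormone, took 4.73% to 13.6% of the counts at 6 weeks and 26.8% to 29.7% at 3 weeks. Library totals ran from 30025256 to 48508653 counts. In bulk tissue, fewer cells of a type and less RNA per cell cannot be told apart.

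The 40 genes took from 0.00274% to 16.9% of a library's counts. In the CD group at 6 weeks, they took 0.108%, 4.04%, 16.9% and 12.3% in M22, M43, M45 and M48. In the HF+SD group at 6 weeks, they took 0.472% in M5, 0.133% in M18, 0.153% in M34 and 0.251% in M35. Thus 3 CD libraries lay far above all HF+SD libraries, and the other CD library, M22, lay below all of them. At 3 weeks the share was 0.00504%, 0.00296%, 0.00274% and 0.0109% in the CD mice M53, M54, M55 and M96, and it was 0.00814%, 0.00486%, 0.00771% and 0.00882% in the HF+SD mice M7, M19y, M20y and M31. Every 3-week library was below every 6-week library. Because Tg alone takes a large part of the counts, the share was also taken outside Tg, and M45 then stood at 17.8% and M22 at 0.122%.

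**Figure D1:**
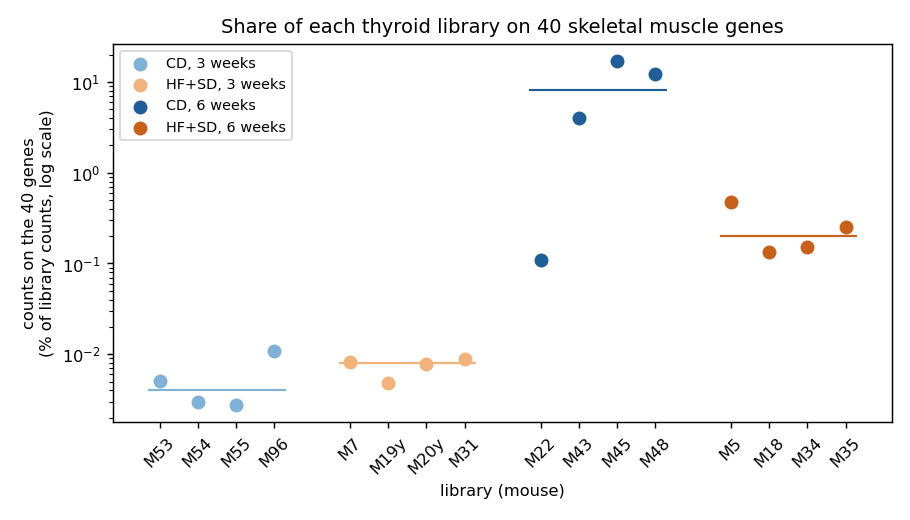
Percentage of each library's counts on the 40 genes (vertical axis, log scale) for the 16 libraries (horizontal axis), coloured by diet and time. Each point is 1 mouse and each line is the group's median; M43, M45 and M48 lie between 4.04% and 16.9%, and M22 lies at 0.108%, below the 4 HF+SD mice.

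At 6 weeks, 35 of the 38 tested genes were called lower on the HF+SD (adjusted p below 0.05 and a log2 fold change beyond 1 in size, by the quasi-likelihood test of edgeR, fitted on the whole table), against 6.01% of all 18249 tested genes, and none was called higher. The median log2 fold change of the 38 was -5.47, where that of all tested genes was -0.01. However, only 1 of the 38, Myom3, had no overlap between the 4 CD and the 4 HF+SD libraries, against 11.5% of all tested genes. M22 was below every HF+SD library for 31 of the 40 genes, within their range for 8 and above them for Myom3. M43, M45 and M48 were all above every HF+SD library for 38 of the 40, with Myh7 and Myh8 as the exceptions. The calls also depended on the HF+SD mice: without M18 or without M34 the count fell to 1 (Myom3), and without M35 it fell to 2 (Myl2 and Myom3). The share of all tested genes called lower then fell to 2.4%, 2.39% and 3.06%, while the members' median log2 fold change stayed between -5.25 and -5.47. Without M22 the count was 39, against 8.78% of all tested genes. When log2 CPM were permuted exactly over the mice (two-sided, smallest possible p 0.0286 for 4 against 4), the exact p was 0.0286 for Myom3 and 0.0571 to 0.286 for the other 39. CPM, the usual counts normalised for depth, here use library sizes scaled by the trimmed mean of M-values (TMM).

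Among the fast genes, Myh4, the IIb heavy chain of the fastest fibres, stood at 184, 5459, 33732 and 21934 CPM in M22, M43, M45 and M48. It stood at 784 CPM in M5, 211 in M18, 154 in M34 and 391 in M35, so M22 lay within the HF+SD range and the other CD mice lay above it. The log2 fold change was -5.24 (SE 1.29, adjusted p = 0.0207, edgeR). Myh1, the IIx chain, had 13.4, 1560, 6177 and 4548 CPM in M22, M43, M45 and M48 and 42.4 to 167 CPM in the HF+SD mice. Myh2, the IIa chain, had 0.270, 444, 2621 and 1310 CPM in the CD mice and 5.94 to 13.2 CPM in the HF+SD mice, and its log2 fold change of -6.75 (SE 1.72, adjusted p = 0.0237, edgeR) was among the 3 lowest. M22 held 10 counts of Myh2 beside 6801 of Myh4, whereas M45 held 84172 beside 1083326. Per kilobase of exon, Myh4 made up 93.4%, 74.6%, 80.7% and 80.1% of the 6 measured heavy chains in M22, M43, M45 and M48. In the HF+SD mice it made up 82.2% in M5, 81.7% in M18, 62.3% in M34 and 80.8% in M35, with Myh1 second in every 6-week library. The IIa chain ranged widely, from 0.116% in M22 to 5.29% in M45.

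Heavy chain genes are alike in sequence, so some reads cannot be given to 1 of them. Of the windows of 75 bases in the GENCODE M21 transcripts, 15.4% of those of Myh1, 13.9% of Myh2 and 9.37% of Myh4 also occur in another of the compared heavy chains (the 6 measured here and the cardiac Myh6). For Myh3 this was 0.581%, with none shared with Myh4, for Myh8 5.86%, with 2.20% shared with Myh4, and for Myh7 10.6%, all shared with Myh6. Myh6 itself had at most 0.491 CPM in the 6-week libraries.

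The fast partners of the heavy chains moved with them. Tnnt3, fast troponin T, had the highest mean level per kilobase among the 40 genes in the CD mice at 6 weeks (6325 CPM per kb), followed by Tnnc2 (5747), Pvalb (4568), Acta1 (3575) and Mylpf (3427). Tnnt3 stood at 90.9, 3565, 23188 and 13204 CPM in M22, M43, M45 and M48, and at 389, 122, 133 and 223 CPM in M5, M18, M34 and M35. Its log2 fold change was -5.46 (SE 1.29, adjusted p = 0.0185, edgeR). Tnnc2, the fast calcium-binding troponin C, stood at 42.6, 1535, 10901 and 5912 CPM in the CD mice and at 51.2 to 183 CPM in the HF+SD mice. In the annotation, 592 of its 800 exonic bases overlap Ube2c on the opposite strand, and whether counting used strand is not given in the sources used here; reads of these genes may thus not be told apart. Mylpf, the fast regulatory light chain, stood at 36.5, 1220, 8315 and 4985 CPM in the CD mice and at 41.7 to 145 CPM in the HF+SD mice. Acta1, skeletal α-actin, stood at 45.2, 1613, 12939 and 7369 CPM in the CD mice and at 62.9 to 200 CPM in the HF+SD mice. Pvalb, the calcium buffer of fast fibres, stood at 44.2, 1515, 11065 and 6396 CPM in the CD mice and at 56.8 to 187 CPM in the HF+SD mice. For each of these genes M22 lay below all HF+SD mice. All 11 fast genes were called lower, with log2 fold changes of -6.75 to -4.91. They include Tnni2 (the inhibitory subunit of fast troponin), Myl1 (the fast essential light chain), Actn3 (the fast α-actinin), Mybpc2 (fast myosin-binding protein C) and Myoz1 (a Z-disc calsarcin of fast fibres).

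Of the 8 slow genes, 6 did not keep the order of the fast genes and were highest in M48, and both developmental genes were also highest there. Myh7, the slow heavy chain, had 0, 14, 41 and 988 counts in M22, M43, M45 and M48, and 13, 1, 1 and 6 in M5, M18, M34 and M35. M48 thus held most of the Myh7 counts although M45 had more of every fast gene. Myl2, the slow regulatory light chain, had 7, 305, 401 and 3835 counts in the CD mice and 1 to 12 in the HF+SD mice. It had the lowest log2 fold change of the tested members (-7.75, SE 1.72, adjusted p = 0.0146, edgeR). Tnnt1, slow troponin T, had 41, 1124, 271 and 2415 counts in the CD mice, so M43 exceeded M45, and it had 135, 77, 80 and 90 counts in the HF+SD mice. Its log2 fold change was -3.28 (SE 0.94, adjusted p = 0.0364, edgeR). Myl3, the slow essential light chain, had 2, 217, 33 and 712 counts in the CD mice and 0 to 7 in the HF+SD mice, and it did not pass the filter on low counts. Tnni1, slow troponin I, also below the filter, had 1, 10, 43 and 541 counts, and Tnnc1, slow troponin C, had 5, 33, 50 and 813. In all 6 of these genes M48 was the highest library.

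A further pair of genes counted as slow here followed the fast genes instead. Mybpc1, slow myosin-binding protein C, had 332, 32268, 128958 and 89459 counts in M22, M43, M45 and M48, and its log2 fold change was -5.68 (SE 1.37, adjusted p = 0.0194, edgeR). Myoz2, the calsarcin of slow fibres, had 0, 888, 3447 and 2104 counts in the same order and 32, 8, 23 and 6 in M5, M18, M34 and M35 (log2 fold change -6.62, SE 1.57, adjusted p = 0.0184, edgeR). In total 5 of the 6 tested slow genes were called lower. Myh7 was not called (log2 fold change -5.64, SE 1.85, adjusted p = 0.0577, edgeR). The fold changes of several slow genes rested on M48: without it that of Myh7 was -1.86 (adjusted p = 0.313, edgeR), that of Myl2 -5.49 (still called) and that of Tnnt1 -2.15 (no longer called). Loss of a call was not limited to slow genes or to M48. Without M48, 29 members were called lower, against 736 of all 18465 tested genes. The fast Myh1, the slow Tnnc1, and Actn2, Ckmt2 and Mb of no fibre class were then also not called. Tnnt1 also lost its call without M43, and Myh1 and Ckmt2 lost theirs without M45.

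The developmental chains were highest in M48, and in both of them M43 exceeded M45 in CPM, as it did in Myl3 and Tnnt1 but not in the other 6 slow genes. Myh8, the perinatal chain, had 0, 173, 23 and 647 counts in M22, M43, M45 and M48, and 31, 4, 2 and 1 in M5, M18, M34 and M35. Myh3, the embryonic chain, had 0 counts in M22 and stood at 1.14, 1.06 and 5.13 CPM in M43, M45 and M48, while the HF+SD mice stood at 0.143 to 0.248 CPM. Neither was called, with log2 fold changes of -4.44 (SE 1.55, adjusted p = 0.0705, edgeR) for Myh8 and -3.17 (SE 1.07, adjusted p = 0.0628, edgeR) for Myh3. Without M48 these were -2.59 and -1.91. Together the 2 genes made up 0.0172% of the member counts in M48 and 0.000784% in M45.

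**Figure D2:**
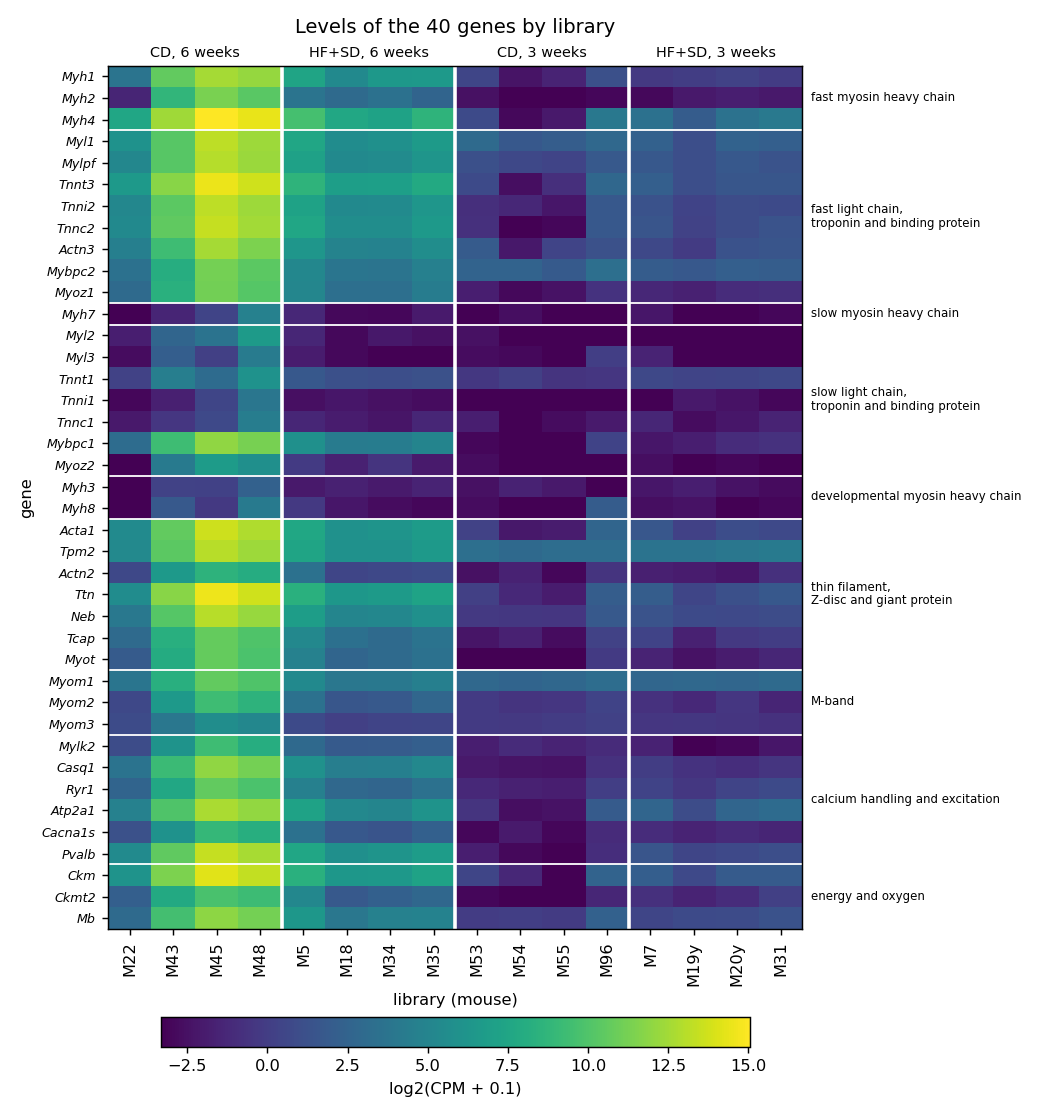
Level of each of the 40 genes (rows, grouped by role) in each library (columns, grouped by diet and time), as log2(CPM + 0.1). M43, M45 and M48 are bright across the fast genes, whereas 6 of the 8 slow rows and both developmental rows are brightest in M48, and the slow Mybpc1 and Myoz2 are brightest in M45.

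To ask whether the libraries carried muscle RNA of 1 composition, each 6-week library was set against M45, which had the highest share. The log2 ratio of counts (0.5 added) was taken for each gene and centred on its median over the 40 genes. In M48, 32 of the 40 genes lay within 0.5 of the median, among them all 11 fast genes and all 19 genes of no fibre class. The other 8 were all above it, and they were 6 slow and both developmental genes. Myh8 deviated by 5.32, Myh7 by 5.11, Myl3 by 4.95, Tnnc1 by 4.55, Tnni1 by 4.18, Myl2 by 3.79, Tnnt1 by 3.69 and Myh3 by 2.99. In M43, 27 genes lay within 0.5, 9 of the 11 fast genes among them. Its deviations were 4.94 for Myh8, 4.76 for Myl3, 4.11 for Tnnt1 and 2.80 for Myh3. They were 1.7 for Myl2, 1.5 for Tnnc1, 0.54 for Myh7 and 0.01 for Tnni1. Slow genes over 0.5 above the median were thus 5 in M43 and 6 in M48, and Tnni1 was so in M48 only. Set against each other, M43 and M48 had 35 of the 40 genes within 0.5 of their own median, all 11 fast genes among them. The slow genes then ranged from -4.57 to 0.42 (M43 minus M48).

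M22 and the HF+SD libraries, with far fewer counts, lay above M45 in many slow genes too. Slow genes over 0.5 above the median were 6 of 8 in M22, 5 in M5, 5 in M18, 6 in M34 and 4 in M35. Both developmental genes were over 0.5 above it in all 5 libraries. These tallies include genes with 0 counts, namely Myh7, Myh3 and Myh8 in M22 and Myl3 in M34, whose deviations come from the 0.5 added. Others rested on few counts, such as 1 of Tnni1 and 2 of Myl3 in M22. Relative to the other members, M45 was low beside M48 in 6 slow and both developmental genes. In M22 and the HF+SD libraries most of these genes had too few counts to decide this. Most ratios among the fast genes were kept. Of the 11 fast genes, 8 lay within 0.5 of the median in M22, 9 in M5, 10 in M18, 10 in M34 and 9 in M35. The main exceptions were Myh2, which deviated by -5.21 in M22, -2.02 in M35 and -1.87 in M5, and Myh1, which deviated by 1.34 in M34. Myoz2 was also low beside M45, by -4.99 in M22, -2.62 in M35, -1.36 in M5 and -1.19 in M18. It had 0 counts in M22, where the value comes from the 0.5 added, and only 6 in M35 and 8 in M18. In M22, Mb, Ttn, Neb, Myom2 and Myot were also lower, at -0.98, -1.01, -1.04, -0.84 and -0.82, while Myom3 deviated by 3.10 and Myom1 by 1.15. Tnnt1 deviated by 4.37 to 5.67 in these 5 libraries. In CPM it stood at 1.11 in M22 and 2.07 to 3.21 in the HF+SD mice. The 3-week libraries, with far smaller shares of the 40 genes, had 0.582 to 1.51 CPM of Tnnt1 and 0 to 0.247 of Myh3. They had 6.07 to 9.29 CPM of Myom1 and 0.529 to 1.06 of Myom3, where M22 had 13.8 and 1.76. How far such low levels enter these deviations was not tested. Over the 40 genes, the Pearson correlation of log2 counts between 2 CD libraries at 6 weeks was 0.916 to 0.973 (Spearman 0.941 to 0.993, 6 pairs), and between 2 HF+SD libraries 0.972 to 0.988 (6 pairs). These describe genes that differ much in mean level and length, which the libraries share.

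**Figure D3:**
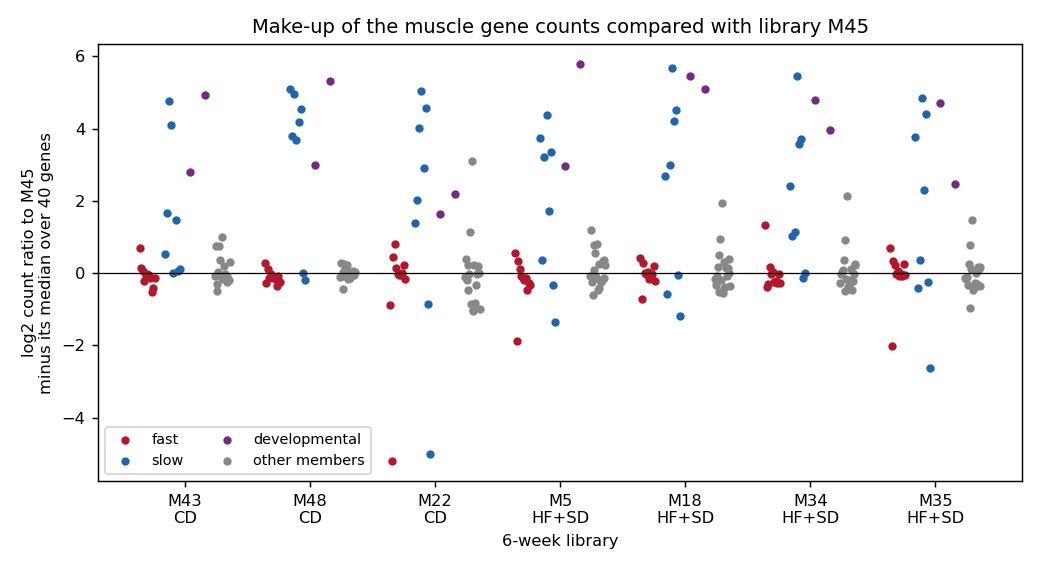
Deviation of each gene's log2 count ratio to M45 from the median ratio over the 40 genes (vertical axis) in the other 7 libraries at 6 weeks (horizontal axis), with 1 point per gene coloured by class. In M48 the fast genes and the genes of no fibre class lie within 0.5 of 0, and 6 slow and both developmental genes lie between 2.99 and 5.32.

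Within 8 pairs of a fast and a slow form, the slow form's share of the pair's counts separated the CD libraries beyond counting error. Between M48 and M45, the exact 95% binomial intervals were apart in 7 of 8 pairs, and between M43 and M45, and between M48 and M43, in 6 of 8. Myh7 made up 0.123% of Myh7 and Myh4 counts in M48 (interval 0.115% to 0.131%) and 0.00378% in M45 (0.00272% to 0.00513%). Myl3 made up 0.373% of its pair with Myl1 in M48 (0.346% to 0.401%), 0.348% in M43 (0.304% to 0.398%) and 0.0109% in M45 (0.00751% to 0.0153%). Tnnt1 made up 0.496% of its pair with Tnnt3 in M48 (0.477% to 0.516%), 0.629% in M43 (0.592% to 0.666%) and 0.0364% in M45 (0.0322% to 0.0410%). By contrast, Myoz2 made up 5.18%, 4.46% and 4.70% of its pair with Myoz1 in M43, M45 and M48, and Mybpc1 made up 70.2%, 63.0% and 64.4% of its pair with Mybpc2. M22 had no count of Myh7, which allows up to 0.0542% of the pair. Intervals cover counting error only, and each library is a single mouse, so variation within a mouse was not measured.

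No pair passed the test between the diets at 6 weeks. The mean log2 ratio of fast to slow counts was lower on the HF+SD by 1.84 for troponin T (8.18 ± 2.23 in CD mice and 6.34 ± 0.53 in HF+SD mice, SD, n = 4 each; exact permutation p = 0.0857, adjusted over 8 pairs p = 0.343). It was higher by 1.72 for the regulatory light chains (7.52 ± 1.55 and 9.24 ± 0.74, SD, n = 4 each; exact permutation p = 0.0857, adjusted p = 0.343). The exact p of the other 6 pairs ranged from 0.257 to 0.943. The CD spread exceeded the HF+SD spread in all 8 pairs.

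**Figure D4:**
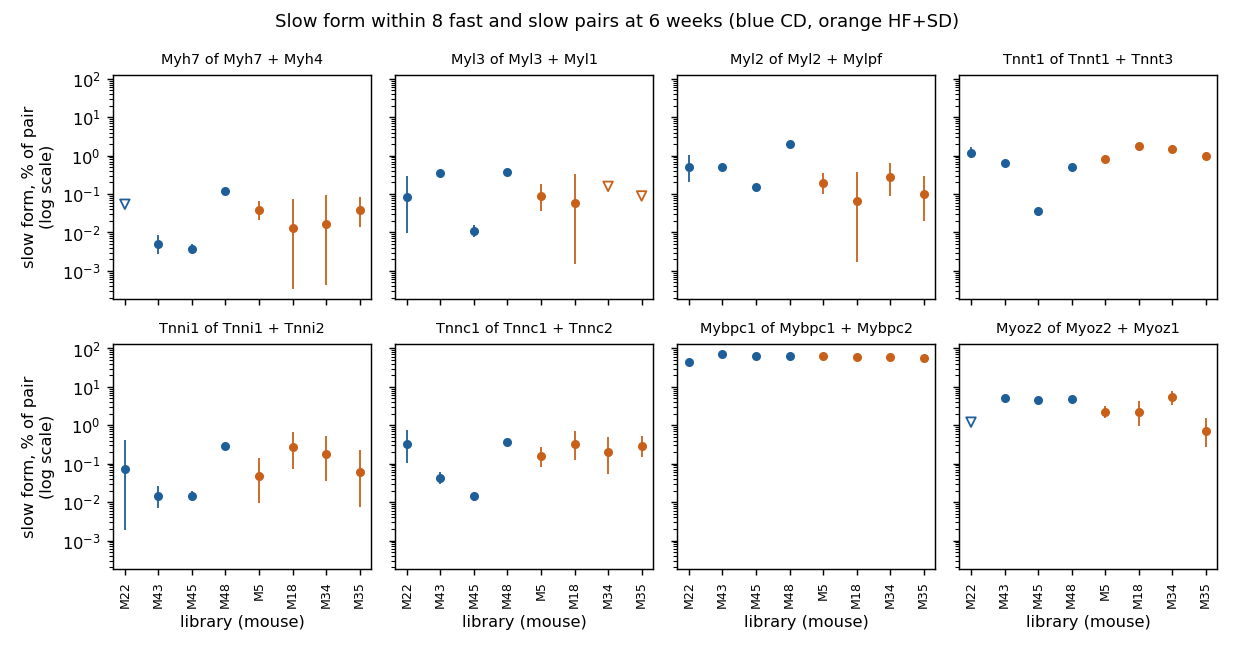
Slow form as a percentage of the counts of its pair (vertical axis, log scale) in the 8 libraries at 6 weeks (horizontal axis), with 1 panel per pair, blue for CD and orange for HF+SD. Bars are exact 95% binomial intervals, and open triangles mark the upper limit where the slow form had no count; in the Myh7 panel M48 lies at 0.123% and M45 at 0.00378%.

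Of the 19 genes of no fibre class, all 19 were called lower on the HF+SD at 6 weeks. The thin filament, Z-disc and giant protein genes had log2 fold changes of -5.85 to -5.24 (7 of 7 called). Among them Ttn, the giant spring of the sarcomere, stood at 47.8, 3446, 23992 and 13180 CPM in M22, M43, M45 and M48 and at 83.8 to 322 CPM in the HF+SD mice. Neb, the ruler of the thin filament, and Tcap, which caps titin at the Z-disc, ran in the same order. In the calcium handling genes (6 of 6 called, -5.66 to -5.18), Atp2a1, the calcium pump of fast fibres, stood at 27.2, 996, 6761 and 4280 CPM in the CD mice and at 32.4 to 156 CPM in the HF+SD mice. Ryr1, the calcium release channel, stood at 6.06, 203, 1546 and 918 CPM in the CD mice and at 6.25 to 24.9 CPM in the HF+SD mice. Among the energy genes (3 of 3 called), Ckm, muscle creatine kinase, stood at 69.8, 2739, 18769 and 10609 CPM in the CD mice and at 85.9 to 327 CPM in the HF+SD mice. Mb, the oxygen store myoglobin, stood at 7.89, 742, 3894 and 2384 CPM in the CD mice and at 15.6 to 84.7 CPM in the HF+SD mice.

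The M-band genes, which cross-link the thick filaments, were called 3 of 3, and Myom3 was the gene whose groups did not overlap. It stood at 1.76, 15.8, 51.6 and 36.2 CPM in M22, M43, M45 and M48 and at 1.64, 0.992, 1.27 and 1.31 CPM in M5, M18, M34 and M35, so M22 was just above M5. Its log2 fold change was -4.27 (SE 0.82, adjusted p = 0.0081, edgeR), among the 3 smallest in size.

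Most genes of related muscle lists outside the 40 were also lower on the HF+SD, but as in the members most overlapped between the diets. Those with no overlap were 1 of 25 other sarcomere and Z-disc genes and 2 of 15 other calcium handling genes. They were also 3 of 15 muscle energy genes and 1 of 5 neuromuscular junction genes, against 11.5% of all tested genes. Of 25 other sarcomere and Z-disc genes, 23 were called lower at 6 weeks, against 6.01% of all tested genes. None was called higher, and the median log2 fold change was -5.22. The most abundant were Tpm1 (a tropomyosin, -3.52, SE 0.89), Xirp2 (-5.65, SE 1.42) and Cmya5 (-5.76, SE 1.43), and those not called were Tpm3 and Mybph. Of 15 other calcium handling genes, 13 were called lower (median -3.79), the most abundant being Trdn, the triadin of the release complex (-5.27, SE 1.29), and Casq2 and Sln were not called. Of 15 muscle energy genes, 14 were called lower (median -3.50), the most abundant being Eno3, muscle enolase (-5.09, SE 1.18). In 3 of them, however, M22 lay above all HF+SD mice. Cox8b, a subunit of cytochrome c oxidase, stood at 106, 159, 363 and 295 CPM in M22, M43, M45 and M48 and at 8.84 to 26.1 CPM in the HF+SD mice, and it had the lowest adjusted p of its list (0.000903, edgeR). Cox7a1, of the same complex, stood at 39.8 CPM in M22 against 17.1 to 22.8 CPM on the HF+SD, and Fabp3, a fatty acid carrier, at 38.4 against 3.59 to 36.4 CPM. Brown adipocytes also make these genes, and the marker sum of those cells in M22 was 452 CPM, whose part in these values was not tested. Of 5 tested genes of the neuromuscular junction, 4 were called lower (median -4.13), with Musk, the receptor kinase that organises the synapse, at -5.35 (SE 1.33). By contrast, none of 6 tested other myosin heavy chains was called in either direction (1 had an unadjusted p below 0.05; edgeR). This was the non-muscle Myh9, with a log2 fold change of 0.98 (adjusted p = 0.0114, edgeR), under the minimum of 1. The others include Myh11 of smooth muscle and the non-muscle chains Myh10 and Myh14.

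In some of the listed genes the order of M43 and M45 was that of Myl3 and Tnnt1 and not that of the fast members. Chrna1, a subunit of the acetylcholine receptor, stood at 0.216, 3.21, 0.903 and 11.3 CPM in M22, M43, M45 and M48. Chrne, its adult subunit, stood at 0.0270, 4.11, 0.374 and 8.42 CPM, and Actc1, cardiac α-actin, at 2.87, 32.1, 7.35 and 72.2 CPM. In each of these M43 and M48 were above M45. These genes were picked out after their values were seen.

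Markers of other muscle were read beside these results, and their part in them was not tested. Of the 9 listed cardiac genes 8 were in the table, with summed levels of 8.25 to 80.5 CPM on the CD and 23.2 to 45.4 CPM on the HF+SD at 6 weeks, and the defining Myh6 was at or below 0.491 CPM in all 8 libraries. Of the 6 tested cardiac genes, Tnni3 and Mybpc3 were called higher on the HF+SD, against 1211 of all 18249 tested genes, and none was called lower. Of 4 genes of muscle precursor cells in the table, Myf6, which mature fibres also make, stood at 0.324, 15.6, 104 and 57.9 CPM in M22, M43, M45 and M48. In the same mice Myod1 stood at 0.108, 0.782, 9.31 and 3.54 CPM and Myog at 0, 0.381, 2.58 and 1.72 CPM. Myf5 was at 0 to 1.87 CPM. The 7 smooth muscle genes summed to 167 to 248 CPM on the CD and 264 to 327 CPM on the HF+SD. Of these genes 3 were called higher, against the same 1211 of 18249. Summed markers of 4 other neck tissues or cell types were also higher on the CD at 6 weeks with no overlap between the diets, M22 included. They were brown adipocyte genes (271 to 541 against 15.4 to 73.8 CPM), white adipocyte genes (179 to 359 against 79.9 to 164 CPM), parathyroid genes (2088 to 13891 against 409 to 1771 CPM, M22 the highest) and C cell genes (5450 to 9322 against 3370 to 4010 CPM). Pth alone was 13758 of the 13891 CPM in M22. Singly, 1 of 3 parathyroid genes (Pth) and 2 of 3 C cell genes (Calca and Calcb) had no overlap, against 11.5% of all tested genes. So did 3 of 3 tested brown and 2 of 4 white adipocyte genes. Gcm2, Casr and Chga of the parathyroid and C cell lists did overlap. They stood at 6.5, 16.6 and 239 CPM in M48 and at 16.9, 19.8 and 652 CPM in M5. Singly, 3 of 3 tested brown and 3 of 4 white adipocyte genes were called lower, 1 of 3 C cell genes and 0 of 3 parathyroid genes, against 6.01% of all tested genes. At 3 weeks the adipocyte sums also did not overlap. They were 125 to 282 against 16.9 to 81.2 CPM (brown) and 288 to 362 against 99.8 to 211 CPM (white).

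At 3 weeks the 40 genes were near the limit of detection. Their counts summed to 1008 to 4537 in a library, 24 of the 40 had a count in all 8 libraries and 9 had at least 20 counts in all 8. These 9 were Tpm2 (β-tropomyosin), Myl1, Mylpf, Mybpc2, Mb, Myom1, Tnnt1, Myom3 and Neb. Myh4 had 60, 1, 5 and 636 counts in the CD mice M53, M54, M55 and M96, and 385, 146, 420 and 731 in the HF+SD mice M7, M19y, M20y and M31. Ckm had 48, 10, 0 and 214 counts in the CD mice and 148, 57, 137 and 165 in the HF+SD mice. M54 and M55 thus held few counts of these 2 genes. Mylpf, among the 5 highest per kilobase in the CD mice at 6 weeks, had 49 and 45 counts in M54 and M55. In the same 2 libraries Tpm2 had 243 and 333 counts, Myom1 197 and 249, Mybpc2 180 and 131 and Myl1 107 and 150. The make-up of these 2 libraries was thus not that of the 6-week libraries, but this was not limited to them. Tpm2 counts were 56.6% to 24300% of the Myh4 counts in the 3-week libraries and 21.2% to 39.8% in the 6-week libraries. Myom1 counts were 48.8% to 19700% of them at 3 weeks and 4.61% to 10.7% at 6 weeks. In the HF+SD mice at 3 weeks, Myh4 made up 76.9% to 94.4% of the heavy chains per kilobase. The Pearson correlation of log2 counts over the 40 genes was 0.510 to 0.866 between 2 CD libraries at 3 weeks (6 pairs), 0.848 to 0.962 between 2 HF+SD libraries (6 pairs) and 0.243 to 0.787 between a CD library at 3 weeks and one at 6 weeks (16 pairs). Between an HF+SD library at 3 weeks and a CD library at 6 weeks it was 0.669 to 0.895 (16 pairs).

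M96 stood apart from the other CD mice at 3 weeks in single genes. It had 156 counts of Myh8, where the other 7 libraries of that time had 0 to 3, and 38 of Myl3, where the others had 0 to 9. It also had 45 counts of Mybpc1, against 0 or 1 in the other CD mice and 4 to 22 in the HF+SD mice. Per kilobase, Myh4 made up 80.2% and Myh8 10.1% of its heavy chains.

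Of the 26 genes tested at 3 weeks, 1 was called higher on the HF+SD, against 3.25% of all 17238 tested genes, and none was called lower. The called gene was Pvalb, with 7, 1, 0 and 17 counts in M53, M54, M55 and M96 and 97, 49, 55 and 90 counts in M7, M19y, M20y and M31. All HF+SD mice were above all CD mice, and the log2 fold change was 3.50 (SE 0.67, adjusted p = 0.0081, edgeR; exact permutation p = 0.0286). M96 and M7 differed in the order of Pvalb and Myh4: M96 had more Myh4 and fewer Pvalb counts. The groups did not overlap in 3 of the 26 genes in the higher direction, against 12.6% of all tested genes, and in 1 in the lower direction, against 11.1%. Beside Pvalb, these were Tpm2, with CD mice at 243 to 374 counts and HF+SD mice at 429 to 825, and Tnnt1, with 21 to 33 and 45 to 64. Their log2 fold changes were 0.71 (SE 0.16, adjusted p = 0.0158, edgeR) and 0.91 (SE 0.23, adjusted p = 0.0259, edgeR), under the minimum of 1. Myom3 was lower, with a log2 fold change of -0.46 (SE 0.23, adjusted p = 0.199, edgeR). The median log2 fold change of the 26 was 0.70, against -0.01 for all tested genes. The count rested on M96: without it 12 genes were called, all higher, among them Myh4, Atp2a1, Ckmt2 and Ryr1, against 2.87% of all tested genes, and the median was 1.86. Without M54 the count was 2, against 3.75%. No fast to slow pair passed the test at 3 weeks, where exact permutation p ranged from 0.114 to 0.914 over 8 pairs.

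The log2 fold change was below 0 in all 38 genes tested at 6 weeks and above 0 in 18 of the 26 tested at 3 weeks, where 1 was called, and the difference between the times was tested as an interaction of diet and time across the 16 libraries. None of the 39 tested genes was called, against 0.0687% of all 18929 tested genes, although 32 had an unadjusted p below 0.05 (edgeR). The median difference in log2 fold change, 6 weeks minus 3 weeks, was -5.95. Because the project number of the libraries changed with time, such a difference cannot be told apart from a difference between the sets of libraries. The lowest adjusted p was that of Pvalb (difference -8.96, SE 1.62, adjusted p = 0.0512, edgeR). This count rested on the test and on single libraries, and the count over all genes moved with it. DESeq2's Wald test called 32, against 6.04% of all genes it tested. In edgeR 33 were called without M22, against 7.72% of all tested genes, and 22 without M43, against 4.0%.

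**Figure D5:**
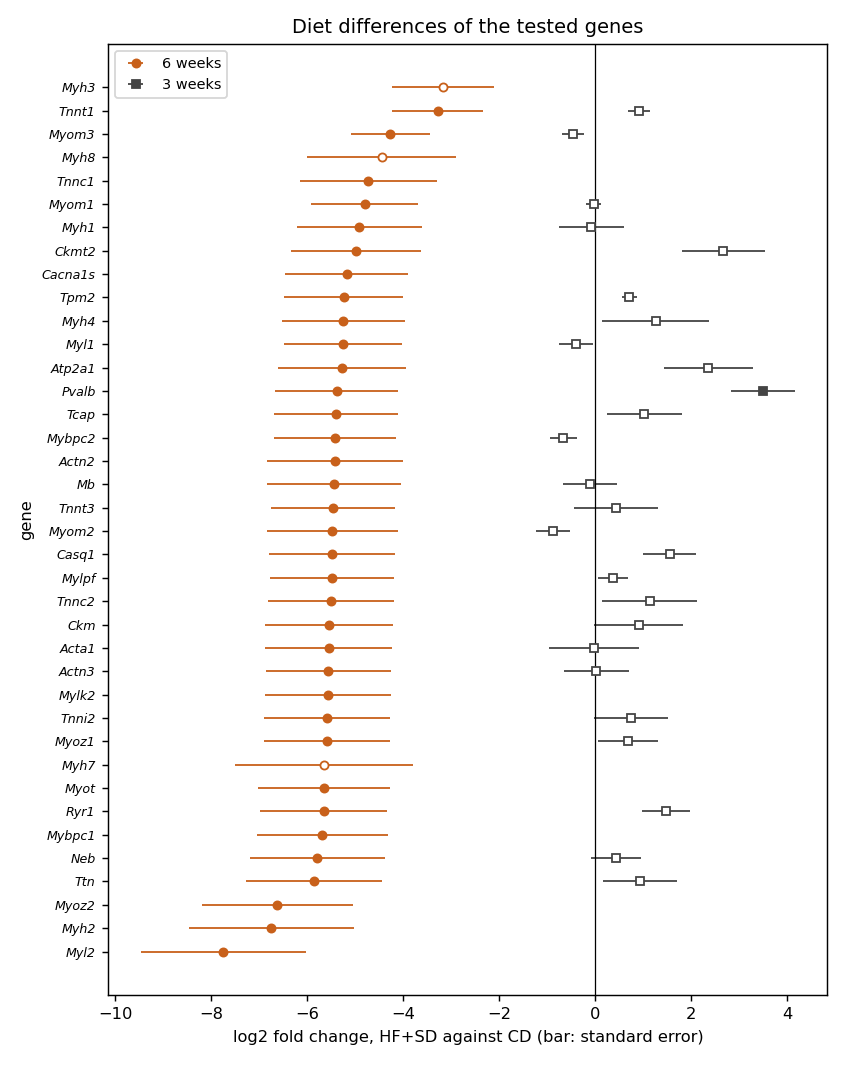
Log2 fold change of HF+SD against CD (horizontal axis, bars are standard errors) for the 38 genes tested at 6 weeks (circles) and those of them tested at 3 weeks (squares), ordered by the 6-week value; filled symbols mark called genes. All circles lie between -7.75 and -3.17, and the only filled square is Pvalb at 3.50.

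Among 9895 other genes with a mean of at least 10 CPM in the CD mice at 6 weeks, 211 followed the summed level of the 40 genes with a Pearson correlation of log2 values above 0.95 over the 16 libraries. Among the 10 most alike were Tmem233, Ppp1r3a, 2310002L09Rik, Dhrs7c, Ampd1, Mylk4, Pgam2, Art1 and Lrrc30, with correlations of 0.996 to 0.992. Ppp1r3a, the glycogen-targeting subunit of protein phosphatase 1 in muscle, stood at 1.27, 72.8, 483 and 263 CPM in M22, M43, M45 and M48. The libraries fall into distinct levels by time point and by muscle share, so these correlations describe that spread.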

How the data were processed

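Poly(A) RNA of whole thyroids was sequenced as read pairs, 1 library per mouse. The authors deposited raw counts of reads per gene, and their table of normalized values was not used. The submitters' processing notes name Trim Galore 0.6.7, STAR, the build mm39, DESeq2 1.36.0 and R 4.1.0; the strand setting is not given in the sources used here. The only coordinates printed are those of the promoter windows, on GRCm38.p6. Others are left out, since the annotation used for symbols and exon lengths (GENCODE M21, GRCm38) is of another build than mm39. It named 20841 of 21640 genes.

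The diets were compared at each time by edgeR 4.0.16 (TMM, filterByExpr, glmQLFTest) in R 4.3.3, with Benjamini-Hochberg adjustment over all tested genes. The SE is the absolute log2 fold change divided by the square root of F. CPM used TMM factors over all 16 libraries, and log2 CPM a prior count of 2. Single genes and log2 ratios (0.5 added) were compared by exact two-sided permutation tests.

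Between mice of a group the chi-square per gene was 15.1 to 871, far above counting error. Genes given by library were the 5 highest per kilobase, the pairs and heavy chains, the 3 at each end of the fold changes, the called genes at 3 weeks and, for each list, its most abundant; others were chosen after their values were seen. The members, lists and tests were chosen with earlier results of these data known. Alternatives were DESeq2 1.42.0, voom in limma 3.58.1, other scaling factors, no filter, 1 fit of all libraries and each mouse left out.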

Additional observations from a re-analysis of the deposited data

Results flagged for a closer look

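In 96 groups of 4 libraries (23 genes given by library and the summed share, in each of the 4 groups), 7 had a library far from the others on the log2 CPM scale by Dixon's test, where chance gives about 1 in 20. In the CD mice at 3 weeks, M96 was high for Myh8 (2.04) and Mybpc1 (0.29), M54 for Myh7 (-3.13), and M53 for Myl2 (-2.90) and Myoz2 (-3.23). The values of M53 and M54 rest on 2 or 3 counts, those of M96 on 156 and 45. In the HF+SD mice, M7 was high for Myl3 at 3 weeks (-1.67), with 9 counts against 0 in the other 3, and M5 for Tnnt1 at 6 weeks (1.71), with 135 counts against 77 to 90.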

How the results depend on the processing

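At 6 weeks, DESeq2 size factors in edgeR, TMM factors from genes outside muscle, no filter, DESeq2's Wald test, voom with sample weights, 1 fit of 16 libraries and no fold minimum gave counts within 1.5 times the 35 reported. Leaving out each mouse gave counts from 1 to 39. Asking instead for no overlap between libraries, chosen after seeing the data, gave 1. At 3 weeks, where 1 gene was called, the count was 3 with no fold minimum, 4 with DESeq2's Wald test, 5 with voom, 0 with 1 fit of 16 libraries (2 at an unadjusted p below 0.05 in edgeR), 1 to 12 with each mouse left out, and 4 with no overlap. In the interaction, where no gene was called, it was 2 with DESeq2 size factors, 1 with TMM outside muscle, 32 with DESeq2's Wald test and 0 to 33 with each mouse left out. Outside Tg, the median share on the HF+SD at 3 weeks was 0.0110%, against 0.00792% of all counts. The cause of these changes was not tested. The median log2 fold changes and the fold changes of the recomputed genes kept their direction under every alternative run. The differences in log2 fast to slow ratio did not in 4 cases, none of which had passed the test. For the calsarcins at 6 weeks it was -0.06, against 0.13 with 1 added and -0.56 to 1.17 with each mouse left out (above 0 without M22 or M34). For myosin-binding protein C at 6 weeks it was 0.09, with -0.11 to 0.40 (below 0 without M43 or M35, -0.0022). For troponin I at 3 weeks it was -0.13, against 0.38 with 1 added and -0.90 to 0.81 (above 0 without M96, M19y or M20y). For troponin T at 3 weeks it was 0.98, with -0.31 (without M54) to 2.08. The count of genes passing the exact permutation test was 1 at 6 weeks and 4 at 3 weeks under both prior counts. With a mouse left out, an exact permutation test of 3 against 4 cannot go below 0.0571. No paired analysis was possible because the groups share no replicate numbers. At 3 weeks 5 of the 8 slow genes had at most 11 counts in any library, so a difference in them was not detectable at this depth.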
